A study of Mus musculus with 4 samples.

Results

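Rab GTPases are the small GTP-binding proteins that mark the membranes of a cell and direct the vesicles moving between them. The description covers every probe annotated to a Rab gene (the letters Rab, a number and at most a short suffix) that was detected on at least 2 of 4 bead arrays of mouse neural stem and progenitor cells (NSPC). Detection means a detection p-value under 0.05. These were 75 probes of 49 genes, out of 112 annotated probes of 59 Rab genes and out of 18237 detected probes among 45259 in all. Measured RNA values played no part in the choice apart from detection. Rab3ip and Rab5if share the letters but encode interacting proteins, so their 3 probes were left out.

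The design set cells labelled as overexpressing Bmi1, a polycomb protein that sustains self-renewal of neural stem cells, against cells labelled as transgenic controls, with 2 biological replicates and 1 array each. All cells came from neocortices of C57BL/6 mice of a conditional Cre/LoxP transgenic line, the controls included. They were grown as floating neurospheres with EGF and FGF2, each at 20 ng/ml, and collected on day 5. The sources used here do not give the Cre driver, the age of the mice or whether animals were pooled. The labels call the replicates biological and do not say whether they came from separate mice or cultures, so p-values measure the spread between these samples.

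A Rab protein cycles between a GDP-bound form in the cytosol and a GTP-bound form on a membrane. Guanine nucleotide exchange factors (GEFs) switch it on, GTPase-activating proteins (GAPs) switch it off, and a lipid tail added by geranylgeranyl transferase holds it in the membrane until GDP dissociation inhibitor extracts it. While active it recruits effectors such as tethers and motor adaptors, and each Rab acts at its own step, from the endoplasmic reticulum (ER) and Golgi through endosomes to lysosomes and secretory vesicles. In neural cells this traffic carries growth factor receptors, adhesion molecules and, in neurons, synaptic vesicles.

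The arrays held 18242 and 18208 detected probes in the controls, and 17742 and 16495 on the first and second Bmi1 array, named by their place in the scanner table. Their mean signals were 228, 233, 215 and 191 in that order. Of the 75 Rab probes, 72 to 74 were detected on any 1 array. The second Bmi1 array lay farthest from the other arrays for 42.7% of the Rab probes, against 42.5% of all detected probes. The probe for Bmi1 itself read 79.4 and 62.7 in the controls, against 53.3 and 77.7 on the Bmi1 arrays, a log2 difference of 0.24 ± 0.29 (SE, adjusted p = 0.680 by limma), so the targeted gene did not check the labels. The sources used here do not say where on the transcript this probe lies.

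The direction of every difference is unsettled. The scanner table and the processed table disagree on which arrays are which: the columns filed under control in the processed table matched the scanner arrays headed as Bmi1 cells at a Spearman correlation of 1.00, with 0.898 at most for any other array. All signed values below are the arrays headed Bmi1 minus those headed control in the scanner table, and under the names of the processed table each sign turns. Sizes and p-values do not depend on that choice.

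No Rab gene passed the adjusted test between the groups, and the shares of Rab probes with small unadjusted p-values were near those of all probes. No Rab probe passed an adjusted p of 0.05 (limma, Benjamini-Hochberg over all 18237 probes), and neither did any other probe, so the background share was 0%. At an unadjusted p under 0.05, 19 of the 75 Rab probes were called, which is 25.3% beside 20.8% of all detected probes. Of these, 8 were higher on the Bmi1 arrays (background 10.7%) and 11 were lower (background 10.1%). The 2 groups did not overlap at 35 Rab probes, 46.7% of them, beside 53.6% of all probes. Of these, 19 were higher (background 26.3%) and 16 lower (background 27.3%). Rab3c, detected on the Bmi1 arrays alone, is 1 of the 19. Without it, 34 of 74 Rab probes did not overlap (45.9%), 18 higher and 16 lower, while the background still holds such probes. With 2 arrays against 2, an exact two-sided permutation test of a single gene cannot go below p = 0.333.

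The log2 differences of the Rab probes had a median of 0.04, beside -0.01 for all probes, with 39 above 0 and 36 below 0. Rab3c, kept through the Bmi1 arrays alone, is 1 of the 39, and without it the median was 0.03. Their median size was 0.25, beside 0.27. A difference of over 1 log2 unit was found for 3 Rab probes, which is 4% against 3.37% of all probes. When arrays were scaled to a common median in place of equal quantiles, the median of all probes moved to -0.21 and that of the Rab probes to -0.22, and 24 Rab probes were above 0 against 51 below. The balance of higher and lower Rab probes therefore rests on the scaling, while their place relative to all probes was close under both. The standard error of a Rab difference ranged from 0.19 to 0.53 on the log2 scale.

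**Figure D1:**
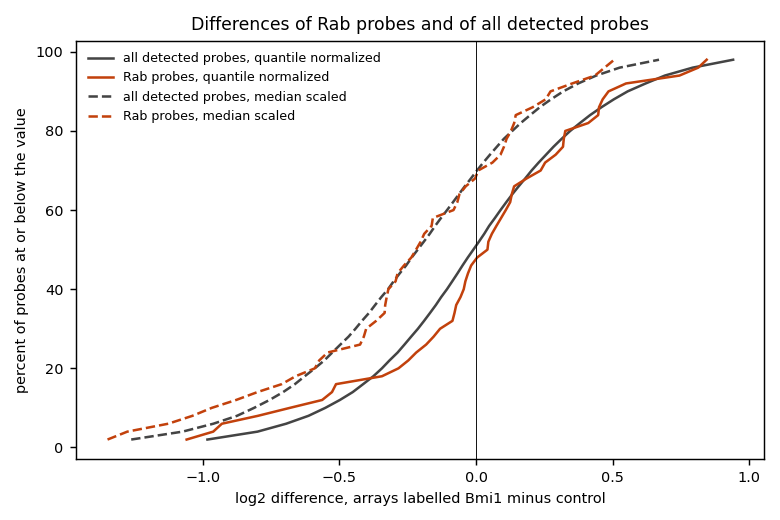
Cumulative share of probes (vertical axis, percent) at or below each log2 difference, Bmi1 minus control by the scanner headers (horizontal axis), for the 75 Rab probes and all 18237 detected probes. Solid lines are quantile-normalized values and dashed lines median-scaled values, and in each pair the Rab line runs close to the line of all probes, with medians of 0.04 and -0.01, and of -0.22 and -0.21.

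Counted by gene, with the brightest probe standing for each, 23 Rab genes were higher and 26 lower. At an unadjusted p under 0.05 there were 13 Rab genes (26.5%), beside 22.0% of all 12809 genes and unnamed probes treated the same way. The groups did not overlap for 26 Rab genes (53.1%), beside 54.8%. Without Rab3c, 22 of 48 Rab genes were higher and 26 lower, and 25 did not overlap (52.1%). Of the 13 with an unadjusted p under 0.05, the 5 higher ones (background 12.2%) were Rab15, Rab5b, Rab26, Rab3b and Rab14. The 8 lower ones (background 9.75%) were Rab1b, Rab36, Rab3a, Rab4a, Rab33b, Rab33a, Rab7 and Rab7b. They belong to different transport steps, and none of them passed the adjusted test. Medians of the role classes ran from -0.15 for recycling endosomes to 0.32 for regulated secretion, and some changed sign when 1 array was left out. The ER and Golgi class stood at 0.09 without the first Bmi1 array, the Golgi to plasma membrane class at -0.09 without control array 1, and the late endosome class at 0.04 without the second Bmi1 array.

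**Figure D2:**
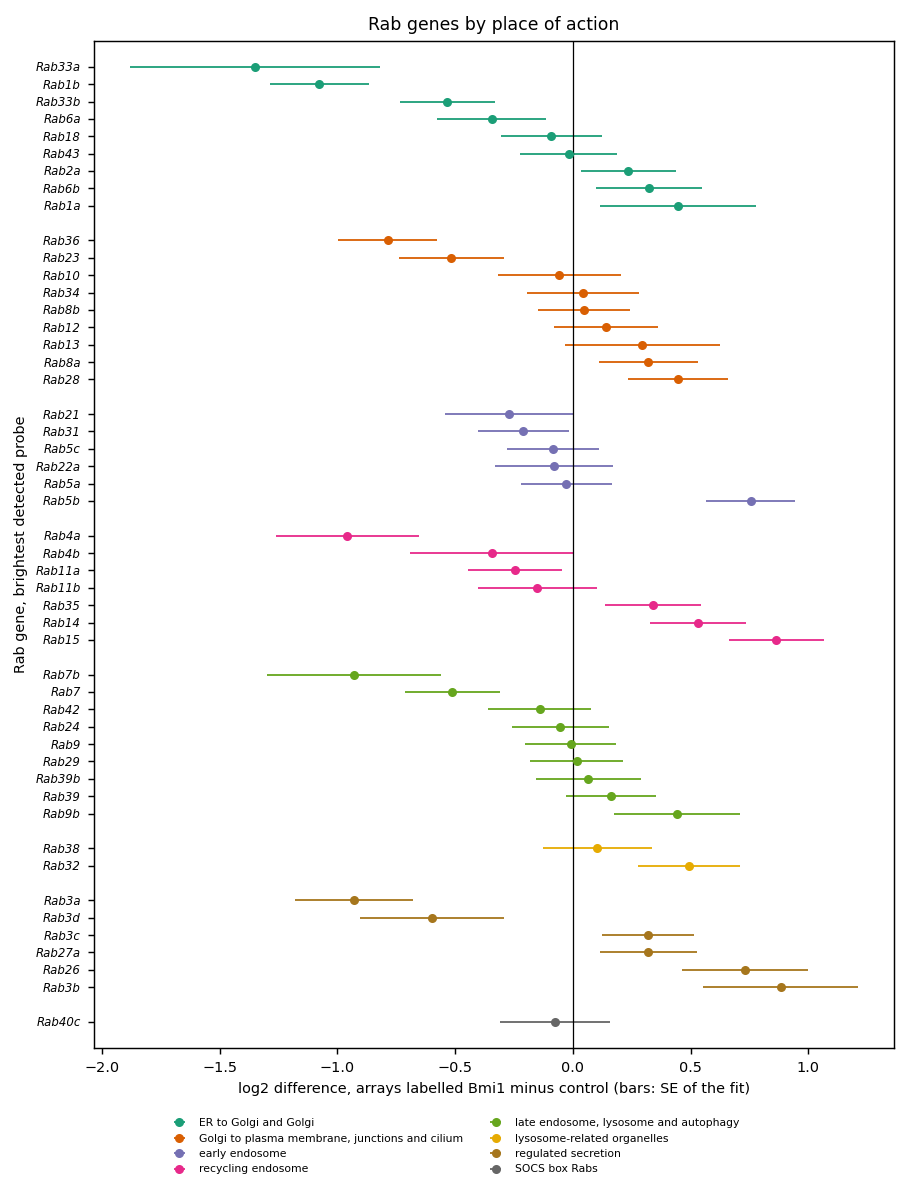
Log2 difference (horizontal axis, Bmi1 minus control by the scanner headers) of each of the 49 Rab genes (vertical axis), by its brightest probe, coloured and grouped by place of action. Points are limma estimates, bars are 1 SE, and the values run from Rab33a at -1.35 to Rab3b at 0.88, with none past an adjusted p of 0.05.

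Among the Rabs of the ER and Golgi, 9 genes were measured, 3 higher and 6 lower, with a median log2 difference of -0.09 (-0.40 under median scaling). Rab1b, which drives transport from the ER to the Golgi, read 508 and 469 in the controls, against 174 and 178 on the Bmi1 arrays. Both Bmi1 signals were far below both control signals, and the groups did not overlap. The log2 difference was -1.08 ± 0.21 (SE), with an adjusted p of 0.140 (limma), the lowest adjusted value of any probe and one that 801 probes share. A second Rab1b probe, dimmer and detected on only 1 of the Bmi1 arrays, gave -1.04 (adjusted p = 0.143). Of the Rab genes with several kept probes, Rab1b was the only one where each kept probe lay more than 1 log2 unit from 0. Its close relative Rab1a, which serves the same step, read 132 and 128 in the controls and 105 and 187 on the Bmi1 arrays. The Bmi1 arrays lay on either side of the controls there, and the log2 difference was 0.45 ± 0.33 (adjusted p = 0.479).

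Rab33a and Rab33b, paralogs that act at the Golgi, were both lower on the Bmi1 arrays, but with unequal spread. Rab33a read 2240.4 and 1745 in the controls, then 1376 and 301 on the first and second Bmi1 array. The low value of the second Bmi1 array carried most of the log2 difference of -1.35 ± 0.53 (adjusted p = 0.215). Without that array the difference was -0.42, and without the first Bmi1 array it was -2.28 with an adjusted p of 0.048. Rab33b, which also binds the autophagy protein Atg16l1, read 461 and 413 against 277 and 199. Its groups stood apart with a log2 difference of -0.53 ± 0.20 (adjusted p = 0.205).

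The Golgi Rab Rab6a, which governs retrograde traffic to the ER, gave an answer that depended on the probe. Its brightest probe read 641 and 750.3 in the controls and 412 and 493 on the Bmi1 arrays, a log2 difference of -0.35 ± 0.23. The other 3 probes gave -0.56, -0.04 and 0.82. The probe at 0.82 read 101 and 128 against 152 and 176 (adjusted p = 0.147), so it was higher on both Bmi1 arrays while the brightest was lower on both. The sources used here do not say which transcript forms these probes match. The brightest Golgi Rab, Rab2a, read 5577 and 5157 against 5707 and 5987, and its log2 difference was 0.24 ± 0.20. The neural paralog Rab6b stood at 0.32 ± 0.22, and Rab18, found on the ER and lipid droplets, at -0.09 ± 0.21. Rab43 was near the detection limit at -0.02 ± 0.21.

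The Rabs that act between Golgi, plasma membrane, junctions and cilium numbered 9, of which 6 were higher and 3 lower. Their median was 0.05, which turned to -0.19 under median scaling. Rab36 had the smallest p of this group. It read 42.4 and 61.3 in the controls against 20.1 and 14.7 on the Bmi1 arrays, with no overlap and a log2 difference of -0.79 ± 0.21 (adjusted p = 0.140). Rab28, a ciliary Rab and the brightest of the group, read 2738 and 2579 against 3010.1 and 3352. That is a log2 difference of 0.45 ± 0.21 (adjusted p = 0.276), while its other probes gave -0.17 and 0.12.

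Rab8a, which carries cargo to the plasma membrane and the primary cilium, read 2003 and 2337 in the controls and 2785 and 2053 on the Bmi1 arrays. The second Bmi1 signal lay between the controls before normalization, and the normalized log2 difference was 0.32 ± 0.21 with the other probe at -0.25 ± 0.31. Rab8b gave 0.05 and 0.47 at its 2 probes. Rab34, needed for cilium formation in mouse, had 3 kept probes that went apart, at 0.04, 0.24 and -0.74. The probe at -0.74 read 485 and 624 against 326 and 207 and did not overlap between groups (adjusted p = 0.159), whereas the brightest probe read 381 and 500.0 against 469.9 and 282. Rab23, known in mouse as a negative regulator of hedgehog signalling, was dim. It read 38.6 and 27.5 against 12.5 and 15.1, a log2 difference of -0.52 ± 0.22 (adjusted p = 0.245). Rab10 (-0.06), Rab12 (0.14) and Rab13 (0.29) differed by less than their standard errors.

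**Figure D3:**
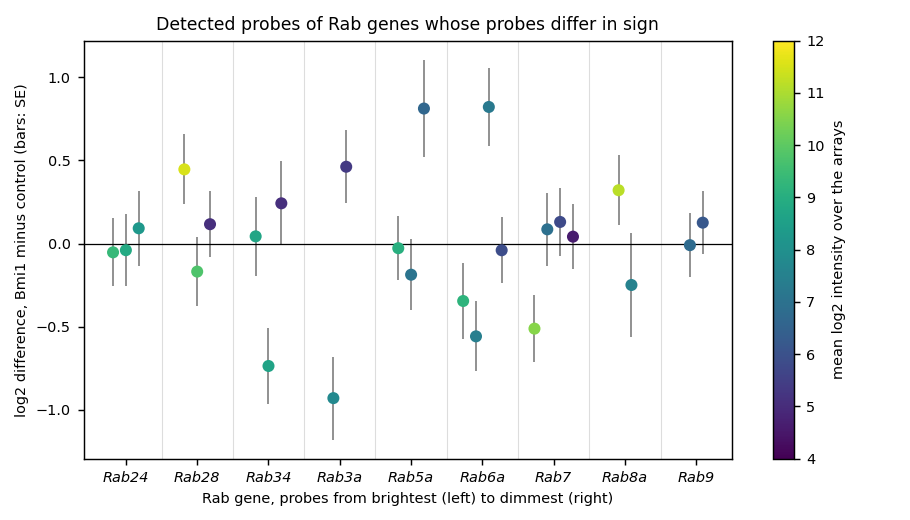
Log2 difference (vertical axis, Bmi1 minus control by the scanner headers) of each kept probe of the 9 Rab genes whose probes differ in sign (horizontal axis, from the brightest probe on the left to the dimmest). Bars are 1 SE, colour is the mean log2 intensity over the arrays, and the probes fall on both sides of 0, with Rab6a from -0.56 to 0.82 and Rab34 from -0.74 to 0.24.

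Probes of opposite sign were found for 9 of the 18 Rab genes with several kept probes: Rab24, Rab28, Rab34, Rab3a, Rab5a, Rab6a, Rab7, Rab8a and Rab9. For Rab24 and Rab9 all probes lay within 0.13 of 0. For the other 7 genes the choice of probe decides the sign of a larger value, so each is described with all its probes.

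Of the early endosome Rabs, 6 genes were measured, 1 higher and 5 lower, with a median of -0.08 (-0.31 under median scaling). The higher one was Rab5b, which fuses early endosomes and controls receptor uptake. It read 179 and 184 in the controls and 277 and 223 on the Bmi1 arrays. The replicates lay closer together than the groups, with log2 means of 7.45 ± 0.02 in the controls and 8.21 ± 0.03 on the Bmi1 arrays (SD, n = 2 arrays each), and the log2 difference was 0.75 ± 0.19 (SE, adjusted p = 0.140 by limma). The paralogs Rab5a and Rab5c serve the same step. The brightest Rab5a probe read 588 and 563 against 514 and 423, which after normalization is a log2 difference of -0.03 ± 0.19. Other Rab5a probes gave -0.19 and 0.81, the last from signals of 60.5 and 75.6 against 80.3 and 126 (adjusted p = 0.192). Rab5c stood at -0.08 ± 0.19.

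Rab31, a Rab of the trans-Golgi network and endosomes, was the brightest early endosome member. It read 7387 and 8177 in the controls and 6750 and 5626 on the Bmi1 arrays, with no overlap, and its log2 difference was -0.21 ± 0.19 (adjusted p = 0.576). Rab21, which handles integrin uptake, stood at -0.27 ± 0.27, and both probes of Rab22a lay near 0 at -0.08 and -0.07.

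The recycling endosome group held 7 measured Rabs, 3 higher and 4 lower, with a median of -0.15 (-0.33 under median scaling). Rab15, an endosomal Rab enriched in neural tissue, read 139 and 133 against 206 and 198 (log2 difference 0.86 ± 0.20, adjusted p = 0.140). Both Bmi1 arrays were above both controls by more than the spread within either group. Rab4a, which returns receptors from early endosomes to the surface by the fast route, read 317 and 242 against 156 and 66.2. The groups stood apart with a log2 difference of -0.96 ± 0.30 (adjusted p = 0.163), and the second Bmi1 array was the lowest. Without the second Bmi1 array the Rab4a difference was -0.56, and the group median was 0.21.

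Rab14, which links Golgi and endosomes, read 1665 and 1847 in the controls and 2157 and 2307 on the Bmi1 arrays. These did not overlap (log2 difference 0.53 ± 0.20, adjusted p = 0.208), and the dimmer Rab14 probe stood at 0.13 ± 0.25. Rab11b, of the slow recycling route, read 7201 and 8743 against 8154 and 4904. The groups overlapped, and the log2 difference of -0.15 ± 0.25 turned to 0.15 without the second Bmi1 array. Rab11a (-0.24 ± 0.20), Rab4b (-0.34 ± 0.35) and Rab35 (0.34 ± 0.21), which acts in recycling and cytokinesis, had adjusted p-values from 0.387 to 0.619.

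**Figure D4:**
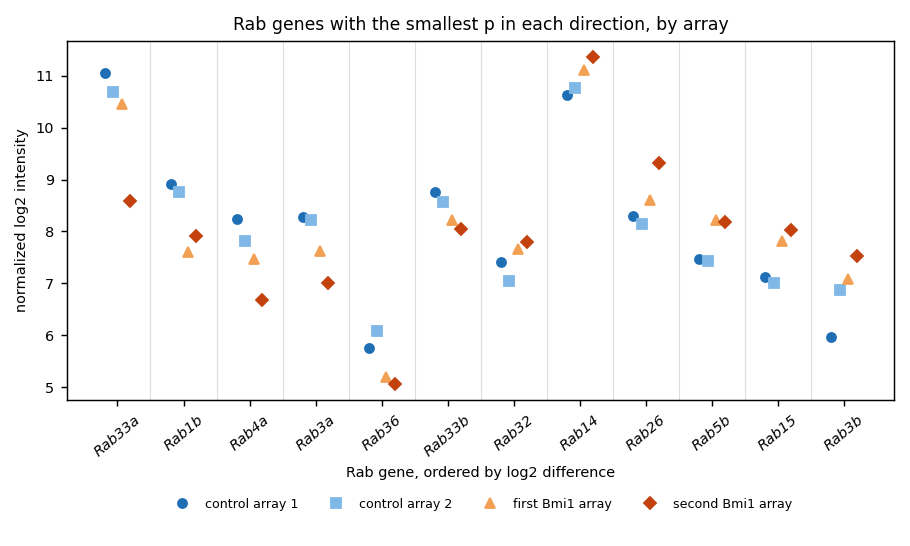
Normalized log2 intensity (vertical axis) on each of the 4 arrays for the 6 higher and 6 lower Rab genes of smallest p (horizontal axis, ordered by log2 difference). Circles and squares are control arrays 1 and 2, triangles and diamonds the first and second Bmi1 array, and the widest spread is that of Rab33a, where the second Bmi1 array stands far below the rest.

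Late endosomes, lysosomes and autophagy were represented by 9 measured Rabs, 4 higher and 5 lower, with a median of -0.01 (-0.29 under median scaling). Rab7, which brings late endosomes and autophagosomes to lysosomes, read 1844 and 1932 against 1344 and 975 at its brightest probe. The groups did not overlap (log2 difference -0.51 ± 0.20, adjusted p = 0.217). The other 3 Rab7 probes, all much dimmer, lay at 0.09, 0.13 and 0.04, within their standard errors of 0. Rab7b read 62.4 and 17.8 in the controls and 6.8 and 9.6 on the Bmi1 arrays. The controls differed from each other by more than the weaker control differed from the Bmi1 arrays, and the log2 difference was -0.93 ± 0.37 (adjusted p = 0.218).

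Rab24, associated with autophagy, read 674 and 748 against 687 and 482 at the brightest of its probes. Its groups overlapped and its 3 probes lay at -0.05, -0.04 and 0.09. Rab9, which returns receptors from late endosomes to the Golgi, read 105 and 108 against 85.1 and 74.9. After normalization that left -0.01 ± 0.19, with the other probe at 0.13, while its relative Rab9b stood at 0.44 ± 0.27. Rab29, a partner of the kinase Lrrk2, stood at 0.02 ± 0.20, Rab39 at 0.16, Rab39b at 0.07 and Rab42 at -0.14, each within its standard error.

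Of the Rabs of regulated secretion, 5 were detected in both groups, 3 higher and 2 lower, and the sixth, Rab3c, on the Bmi1 arrays only. The median of the 5 was 0.32, and it depended on the processing: 0.10 under median scaling, 0.15 with a normexp offset of 50 and 0.54 with no background step. Rab3a, the main Rab of synaptic vesicles, read 325 and 320.4 in the controls, then 176 and 86.0 on the first and second Bmi1 array. The controls were nearly equal and both Bmi1 arrays lower, with a log2 difference of -0.93 ± 0.25 (adjusted p = 0.141). A dim second Rab3a probe went the other way, at 0.46 ± 0.22, from 21.9 and 21.5 against 38.9 and 20.8. Rab3b, a relative of Rab3a in secretory cells, read 51.2 and 120.2 against 117 and 134. The unnormalized signals overlapped and the normalized ones did not, and the Bmi1 arrays had the lower mean signals (log2 difference 0.88 ± 0.33, adjusted p = 0.200). The controls differed widely, and leaving out control array 1 gave 0.43, while leaving out control array 2 gave 1.34. The other Rab3b probe gave 0.45 ± 0.30.

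Rab26, found on secretory granules and synaptic vesicles, read 332 and 307 in the controls and 368 and 526 on the Bmi1 arrays. Both Bmi1 signals were above the controls (log2 difference 0.73 ± 0.27, adjusted p = 0.198), whereas a dimmer Rab26 probe stood at 0.06 ± 0.23. Without the second Bmi1 array the brighter probe stood at 0.37. Rab3c was detected on neither control array, with signals of 2.4 and 4.3, and on both Bmi1 arrays, at 8.4 and 10.2. With the controls set to the lowest detected signal of their array, the point estimate was at least 1.10-fold higher on the Bmi1 arrays. That bound leaves out the spread between arrays, and the fitted log2 difference was 0.32 ± 0.20 (adjusted p = 0.396 by limma). Since the detection rule kept this probe through the Bmi1 arrays, its sign was favoured by the rule. Rab3d stood at -0.60 ± 0.31 with overlapping groups, and Rab27a, which docks melanosomes and secretory vesicles, at 0.32 ± 0.21.

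Both Rabs of lysosome-related organelles, which sort cargo to melanosomes, were measured. Rab32 read 172 and 137 in the controls and 182 and 162 on the Bmi1 arrays. These signals overlapped before normalization and not after it, and the log2 difference was 0.49 ± 0.22 (adjusted p = 0.249), or 0.31 without control array 2. Rab38 stood at 0.10 ± 0.23. Rab40c, a Rab with a SOCS box that recruits a ubiquitin ligase, was the only measured member of its class. It read 885 and 946 against 950.1 and 561, with overlapping groups and a log2 difference of -0.08 ± 0.23.

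The other 37 annotated Rab probes were left out by the detection rule, with signals from -9.7 to 15.1 on any array. Just inside the rule were the probes of Rab3c at 2.4 to 10.2, and a Rab7 probe at 6.1 to 9.8. Just outside it were a Rab43 probe detected only on the second Bmi1 array, where it read 15.1, and a Rab7b probe detected only on control array 1, at 10.0. Of the kept probes, 68 were detected on all 4 arrays, 5 on 3 and 2 on 2. No kept probe was found for 10 genes, namely Rab2b, Rab17, Rab19, Rab20, Rab25, Rab27b, Rab30, Rab37, Rab40b and Rab44. Their 17 probes read between -9.7 and 14.0. Among these, Rab17 and Rab25 are known from epithelial cells and Rab27b from secretory cells.

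Promoter letters were read from RefSeq windows of the build GRCm38.p6, taking the 250 bases before each transcription start. Of the 49 genes, 42 had 54 such windows, and Rab18, Rab26, Rab2a, Rab36, Rab38, Rab4a and Rab7b were not matched. A GC box (GGGCGG, the letters bound by Sp1-family factors, on either strand) was present in 68.5% of the Rab windows, beside 57.7% of 10550 windows of all detected genes and 32.7% of all 32851 windows. The CCAAT box (CCAAT) was in 40.7%, 35.8% and 33.8% in the same order, the E-box CACGTG in 7.41%, 8.30% and 6.02%, the CRE TGACGTCA in 1.85%, 2.60% and 1.55%, and the letters TATAAA in 7.41%, 6.58% and 12.4%. The median ratio of observed to expected CpG was 0.742 in the Rab windows, 0.720 in windows of detected genes and 0.373 in all windows. Rab windows were thus rich in CpG and GC boxes, as those of detected genes in general were, and poor in TATA letters relative to all windows.

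The windows below belong to Rab genes among those with the smallest p in each direction that have 1 listed start, Rab5b and Rab3b with positive and Rab1b and Rab33b with negative differences. They are shown so that the base composition of higher and lower members can be compared. Capitals mark the GC box on either strand, and each sequence runs 5′ to 3′ towards the gene. The Rab5b window is chr10:128696269-128696518 on the minus strand, that of Rab3b chr4:108878820-108879069 on the plus strand, that of Rab1b chr19:5106997-5107246 on the minus strand and that of Rab33b chr3:51483716-51483965 on the plus strand.
Rab5b: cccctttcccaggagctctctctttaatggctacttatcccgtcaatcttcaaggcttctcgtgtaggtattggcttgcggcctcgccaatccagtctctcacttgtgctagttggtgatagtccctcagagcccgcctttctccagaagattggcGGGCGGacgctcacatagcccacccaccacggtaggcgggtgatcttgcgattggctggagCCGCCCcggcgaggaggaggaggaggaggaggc
Rab3b: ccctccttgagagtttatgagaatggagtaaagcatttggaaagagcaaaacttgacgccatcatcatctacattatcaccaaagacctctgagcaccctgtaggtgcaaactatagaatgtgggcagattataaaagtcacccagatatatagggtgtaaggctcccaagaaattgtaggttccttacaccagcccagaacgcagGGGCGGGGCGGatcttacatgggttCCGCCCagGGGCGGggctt
Rab1b: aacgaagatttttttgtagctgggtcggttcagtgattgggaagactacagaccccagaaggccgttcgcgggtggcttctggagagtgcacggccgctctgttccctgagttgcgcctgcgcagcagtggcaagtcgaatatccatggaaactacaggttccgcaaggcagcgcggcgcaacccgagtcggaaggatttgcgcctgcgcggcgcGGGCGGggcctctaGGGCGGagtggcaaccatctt
Rab33b: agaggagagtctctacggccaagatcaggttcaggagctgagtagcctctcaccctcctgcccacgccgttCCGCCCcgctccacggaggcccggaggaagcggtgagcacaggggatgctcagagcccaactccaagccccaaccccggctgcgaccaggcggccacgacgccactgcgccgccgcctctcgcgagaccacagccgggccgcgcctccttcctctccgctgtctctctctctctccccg
Each holds at least 1 GC box: 2 in Rab5b, 4 in Rab3b of which the first 2 overlap, 2 in Rab1b and 1 in Rab33b. The box was therefore present in windows of both signs. None of these windows holds the E-box. The CpG ratio was lowest in Rab3b at 0.405, and was 0.639 in Rab5b, 0.805 in Rab33b and 1.02 in Rab1b.

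The proteins that load, switch and read Rabs were then counted from lists of the pathway, each gene by its brightest probe, and none passed the adjusted test. Of 5 genes of prenylation and membrane recycling detected in both groups, 3 were higher and 2 lower, with a median of 0.16 that turned to -0.05 under median scaling. At an unadjusted p under 0.05, 1 was higher and 1 was lower. Rabac1, which helps to release Rabs from GDP dissociation inhibitor, read 2841 and 2764 against 1729 and 1180, and the groups stood well apart (log2 difference -0.76 ± 0.21, adjusted p = 0.146). Yipf4, a Golgi membrane protein of the family that binds Rabs, read 33.7 and 34.2 against 41.9 and 55.1 (0.65 ± 0.24, adjusted p = 0.201), or 0.37 without the second Bmi1 array. Gdi2, a GDP dissociation inhibitor, was detected on neither control array, at 5.4 and 3.3, and on both Bmi1 arrays, at 10.4 and 18.4. Gdi2 is left out of these counts, since the detection rule kept it through the Bmi1 arrays. By the bound used for Rab3c its point estimate was at least 1.36-fold higher there. The fitted log2 difference was 0.58 ± 0.24 (adjusted p = 0.226 by limma).

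Of the Rab GEFs, 26 of 36 listed genes were detected in both groups, 14 higher and 12 lower, and 3 higher and 1 lower at an unadjusted p under 0.05. Their median was 0.04, and -0.22 under median scaling. Rab3il1, detected on the control arrays only, is left out. Rabgef1, the exchange factor of the Rab5 proteins, read 397 and 379 against 543 and 590.3, a log2 difference of 0.81 ± 0.21 (adjusted p = 0.140). It was higher on both Bmi1 arrays, as was its substrate Rab5b. Of the other Rab5 genes, Rab5c stood at -0.08 and the Rab5a probes at -0.03, -0.19 and 0.81. Rab3gap1, part of a complex that acts as a GAP for Rab3 and as an exchange factor for Rab18, read 414 and 504 against 663 and 567 (0.68 ± 0.20, adjusted p = 0.151).

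Of the Rab GAPs, 29 of 35 were measured, 15 higher and 14 lower, with a median of 0.04 (-0.15 under median scaling), and 2 higher and 3 lower at an unadjusted p under 0.05. Tbc1d13, a GAP for Rab35, read 497 and 466 against 241 and 134, so that both Bmi1 arrays were far below the controls (log2 difference -1.03 ± 0.24, adjusted p = 0.140). Tbc1d25, a GAP for Rab33b, read 94.9 and 88.4 against 48.5 and 31.3 (-0.65 ± 0.20, adjusted p = 0.160).

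Of the effectors and tethers, 32 of 46 were measured, 11 higher and 21 lower, with a median of -0.12 (-0.44 under median scaling), and 2 higher and 2 lower at an unadjusted p under 0.05. Golga2, the Golgi tether GM130 that binds Rab1, read 173 and 194 against 248 and 264 (0.78 ± 0.21, adjusted p = 0.144). It was higher on both Bmi1 arrays, whereas Rab1b was lower on both. Plekhm1, an adaptor through which Rab7 meets the lysosome, read 405 and 304 against 448 and 528 (0.74 ± 0.25, adjusted p = 0.177). The shares of these 4 lists at an unadjusted p under 0.05 are to be read against the 22.0% of all genes.

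Markers of the cell types that neurospheres can hold were counted on the same arrays, and none passed the adjusted test. Of 8 listed neuronal markers 6 were measured, 2 higher and 4 lower, with a median log2 difference of -0.45. At an unadjusted p under 0.05, 0 were higher and 2 lower. Their summed level on the normalized linear scale was 4073 and 3973 in the controls, against 3494 and 2571 on the Bmi1 arrays. For astrocytes 1 of 7 measured markers was higher and 6 lower, with a median of -0.75, and 0 higher and 4 lower at that threshold. Their sums overlapped between the groups, at 30747 and 33508 in the controls against 28658 and 31438 on the Bmi1 arrays. Such sums give most weight to the brightest marker, here Slc1a3 at a log2 difference of 0.33. The 4 called lower were Gfap (-2.74), Atp1b2 (-1.28), Aqp4 (-1.21) and Aldoc (-0.75), each without overlap. The oligodendrocyte lineage had 3 higher and 5 lower of 8 with a median of -0.48, and 0 higher and 4 lower at that threshold. Its sums also overlapped, at 21757 and 17790 against 18821 and 16945, with most weight on the brightest marker, Olig1 (0.09). The 4 called lower were Mbp (-3.84), Mag (-2.05), Cnp (-1.37) and Olig2 (-0.65), each without overlap. Mag was detected on only 1 of the Bmi1 arrays. All 5 measured markers of dividing cells were higher, 2 of them at an unadjusted p under 0.05, with sums of 1459 and 2501 against 2890 and 4924. Of the 7 measured stem and progenitor markers, Nes and Sox2 included, 2 were higher and 5 lower, with a median of -0.04. At an unadjusted p under 0.05, 0 of them were called. The backgrounds over all genes at that threshold were 12.2% higher and 9.75% lower. Under median scaling the stem and progenitor median was -0.36. It was -0.72 for neurons, -0.88 for astrocytes, -0.76 for the oligodendrocyte lineage and 0.40 for dividing cells. Of 7 microglial markers 2 were measured, neither detected on a control array, and no listed marker of endothelial cells, fibroblasts or pericytes was kept. The part of any cell type in the Rab differences was not tested, and in such bulk RNA fewer cells of a type and less RNA per cell cannot be told apart.

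**Figure D5:**
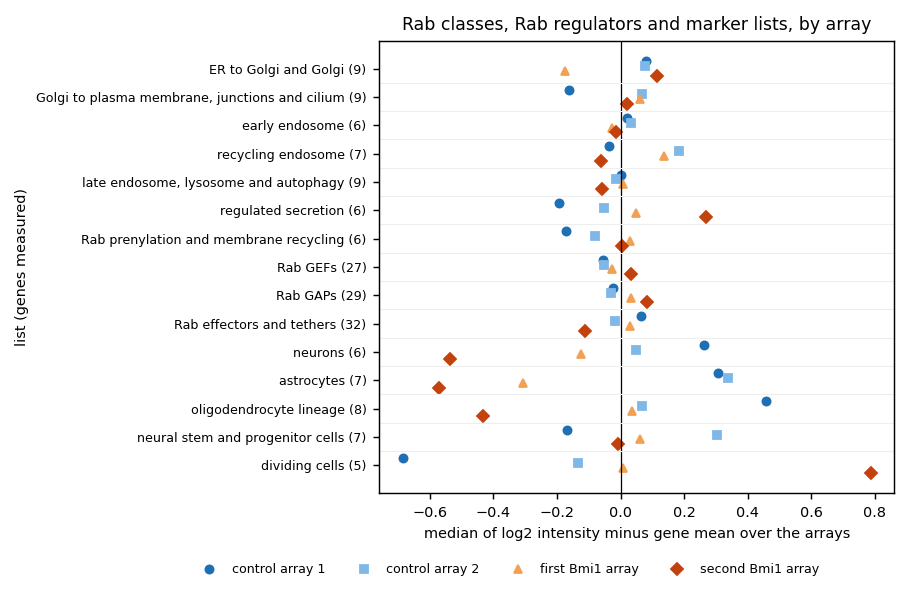
Median log2 deviation from each gene's mean over the 4 arrays (horizontal axis) for the Rab role classes, the regulator lists and the marker lists (vertical axis, with genes measured), 1 symbol per array. The 4 arrays lie closer together for the Rab classes and regulators, while the neuronal, astrocyte, oligodendrocyte and dividing-cell markers spread farther, the second Bmi1 array lying at an end of each. Unlike the counts in the text, the regulated secretion, prenylation and GEF lists include Rab3c, Gdi2 and Rab3il1, each detected in only 1 of the groups.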

How the data were processed

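The values are those of 4 Illumina bead arrays, 2 labelled control and 2 labelled Bmi1. Per the file headers, the authors deposited a signal intensity and a detection value per probe and array, with the background already taken off the intensity: on each array 31.2 to 33.9% of signals were 0 or negative. The deposited detection value rose with the signal, so 1 minus it was taken as the detection p-value. The authors' deposited processed table holds log2-like values; the sources used here name lumi, per the submitters' processing notes, but neither the transform nor the background step. Of the scanner rows, 22 without a probe identifier were left out.

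Under R 4.3.3 and limma 3.58.1 the signals went through neqc (normexp background from detection p-values, offset 16, log2, quantile normalization). Probes with a detection p under 0.05 on 2 or more arrays were fitted by lmFit and eBayes with group as the only term, two-sided, with Benjamini-Hochberg adjustment over all of them, and 7.31 total degrees of freedom. The number of arrays limits the precision, and no slide or scan date was given, so no batch was tested. The fit was tested on simulated data.

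Genes were named from the platform annotation, in which 34872 probes carry 1 symbol and 18 several, and 34794 were matched to current names. Each gene stands by its kept probe with the highest mean. Named with full values were the 6 higher and 6 lower Rab genes of smallest p, the brightest of each role class, Rab genes with probes of opposite sign, and the 2 smallest p of each regulator list. Other Rab genes are named as members, and Gdi2 was chosen after its value was seen. The members, lists and alternatives were chosen with earlier results of these data known. The replicate numbers of the labels were not taken as pairs. Deviations of same-numbered samples correlated at -0.20 in the processed table. With 2 samples a group the crossed pairs have the opposite sign by construction, so that value cannot decide whether samples are paired.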

Additional observations from a re-analysis of the deposited data

How the results depend on the processing

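The adjusted count of Rab probes was 0 in each alternative except 1, and the calls at an unadjusted p depended on the model. Rab probes at an unadjusted p under 0.05 went from 19 to 8 with no background step, where all probes went from 3795 to 2842. Without eBayes the counts were 5 for the Rab probes and 2018 for all probes. The Rab median went from 0.04 to -0.22 under median scaling (all probes -0.21) and to -0.018 with 1 probe per gene. In the authors' processed table it was -0.022, with or without the replicate block. That value stands under the table's own group names, which turn each sign. Median scaling also moved the unadjusted calls to 615 higher and 3670 lower over all probes, and to 1 higher and 16 lower among the Rab probes. Leaving out 1 array at a time, with the lone array assumed to vary like the others, gave 0 to 63 adjusted calls over all probes (12 with control array 2 left out, 63 with the first Bmi1 array left out) and 0 to 1 among the Rab probes (Rab33a, without the first Bmi1 array). It gave 1640 to 4912 unadjusted calls over all probes, 8 to 21 among the Rab probes, 50 to 58 Rab probes with groups apart and a Rab median of -0.044 to 0.061. The lowest unadjusted counts came without control array 1. They were 2026 and 11 when the second Bmi1 array was left out. With fewer arrays groups overlap less easily, and the share of all probes apart was not counted with an array left out. The wider count of Rab probes apart therefore has no background beside it. The causes of these changes were not tested.

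The replicate numbers share only a number: the blocked fit of the processed table gave 3394 unadjusted calls over all probes and 18 among the Rab probes. A crossed pairing, added after seeing the data, gave 4367 and 22.

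In the processed table under its own names, with or without the replicate block, every named gene turned its sign, by construction of the names: Rab1b 0.97, Rab15 -0.73, Rab5b -0.66, Rab36 0.47, Rab3a 0.80, Rab4a 0.80, Rab26 -0.68, Rab3b -0.68, Rab33b 0.48, Rab14 -0.52, Rab33a 1.30, Rab7 0.50, Rab32 -0.42, Rab28 -0.44, Rab8a -0.32, Rab6a 0.32, Rab2a -0.24, Rab31 0.21, Rab11b 0.15, Rab40c 0.074, Rab24 0.051, Rab34 -0.040, Rab5a 0.027, Rab9 0.0076, Rabac1 0.75, Yipf4 -0.42, Rabgef1 -0.75, Rab3gap1 -0.63, Tbc1d13 0.93, Tbc1d25 0.46, Golga2 -0.68 and Plekhm1 -0.68. In the 13 alternatives on the scanner table, 26 of 32 named genes, 18 of 24 of them Rabs, kept their direction. The other 6 changed sign when an array was left out, and Rab34 also under median scaling, at -0.25. Without a change of sign, Rab28 moved to 0.29 and Rab2a to 0.13 without the second Bmi1 array, Rab8a to 0.18 and Rab6a to -0.12 without the first, and Rab6a to -0.57 without the second. The ranges of the 6 over the arrays left out were -0.17 to 0.26 for Rab34, -0.079 to 0.024 for Rab5a, -0.079 to 0.060 for Rab9, -0.18 to 0.077 for Rab24, -0.45 to 0.15 for Rab11b and -0.34 to 0.18 for Rab40c. With 2 arrays a group, dim Rab probes and differences under about the standard error could not be resolved.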

Other observations

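Of the letter matches left out as interacting proteins, Rab3ip, which activates Rab8, read 102 and 85.4 in the controls, against 83.4 and 75.1 on the Bmi1 arrays. Its normalized log2 difference was 0.14 ± 0.21 (adjusted p = 0.741 by limma). Both Rab5if probes lay slightly lower on the Bmi1 arrays, at -0.17 ± 0.19 and -0.18 ± 0.20.

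Of the Rab probes left out by the detection rule, 7 were detected on 1 array. On the second Bmi1 array these included the Rab43 probe at 15.1, a Rab19 probe at 14.0, a Rab23 probe at 9.6 and a Rab9 probe at 9.2, while the Rab10 probe at 8.9 was detected on control array 1.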
